A study of Homo sapiens with 6 samples.

Results

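The genes of 10 secreted plasma proteins, out of 32943 genes listed with counts, are described across 6 RNA-seq libraries. They are ALB, AFP, GC, TTR, RBP4, AMBP, ORM1, AHSG, HP and HPX, and they were picked by symbol after a lower level with IGF2BP3 overexpression had been seen in these libraries. Their difference between the groups is therefore given as a description, with no p-value. The study asked which genes change when IGF2BP3, an RNA-binding protein that regulates the stability and translation of mRNAs, is raised in AGS cells, a line from a human gastric adenocarcinoma. The 3 control libraries came from cells that received a control plasmid. The 3 overexpression libraries came from cells that received pcDNA3.1-3xFlag-IGF2BP3, which encodes IGF2BP3 with a Flag tag. Both groups were transfected with Lipofectamine 3000 and harvested after 48 h, and both are of 1 cell line under transient transfection. The labels do not say whether the libraries of a group came from separate cultures, so their spread may be technical.

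Carrier proteins of plasma are made mainly by hepatocytes, which secrete them to move hormones, vitamins, haem and lipids through the blood. Albumin and alpha-fetoprotein are related proteins encoded side by side. In development the yolk sac and fetal liver make alpha-fetoprotein, and after birth albumin remains the main plasma protein while alpha-fetoprotein is silenced. Some tumours, including gastric tumours of hepatoid type, make alpha-fetoprotein again. Transcription of these genes is known to depend on HNF1, HNF4, FOXA and C/EBP factors.

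IGF2BP3 itself had 3221, 3421 and 3614 counts in the control libraries and 19087, 20345 and 24718 with overexpression. The libraries held 33555366 to 37633587 counts. On the first principal component, control replicate 1 (−35.3) and overexpression replicate 3 (35.8) lay farthest out in their groups. Mitochondrially encoded genes took 6.15% to 6.54% of counts in the controls and 5.03% to 5.28% with overexpression. The part of that difference in the levels below was not tested.

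The label of the cells was set against marker lists. The 12 gastric epithelial marker symbols included GIF and CBLIF, old and new names of the same gene. Of the 12 symbols, 8 had counts, and 7 of these stayed under 1 CPM (counts scaled to edgeR's TMM-adjusted library size) in each library. MUC5AC, the mucin of gastric surface cells, averaged 0.0185 CPM in the controls, and CLDN18, the claudin of stomach, 0.0664 CPM. The summed level of the 8 was 4.27 to 5.96 CPM in the controls and 1.53 to 1.86 CPM with overexpression. Most of it was PGC, at 4.44, 3.67 and 3.49 CPM in the controls and 1.18, 1.15 and 0.779 CPM with overexpression. Markers of epithelium in general were abundant, with summed levels of 9827 to 10301 CPM in the controls and 8902 to 10280 CPM with overexpression, carried by KRT8 and KRT18. Of 16 hepatocyte markers outside the carrier genes, 13 could be tested, and their sum was 2068 to 2182 CPM in the controls and 1595 to 1772 CPM with overexpression. The fibrinogen chains FGA, FGB and FGG made up most of that sum, whereas F9, CYP3A4 and ARG1, which mark mature hepatocytes, averaged 0.00937, 0.219 and 0.331 CPM in the controls. The libraries thus hold plasma protein transcripts of the hepatic kind with almost no transcripts of gastric differentiation beyond PGC at a low level. The cells are called here only by their label.

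Of 7 markers of yolk sac and germ cells, 5 had counts, and their sum was 541 to 542 CPM in the controls and 419 to 421 CPM with overexpression, with GPC3 lower and LIN28B higher. Intestinal epithelial markers summed to 445 to 461 CPM in the controls and 364 to 373 CPM with overexpression, mostly VIL1. Of these, 5 of 5 tested were lower (edgeR adjusted p under 0.05), beside 19.2% of all 17747 genes tested. Lower were also 7 of 13 hepatocyte, 4 of 5 fibroblast, 2 of 3 blood and endothelial and 2 of 7 general epithelial markers. Of gastric markers 1 of 2 was lower, and of yolk sac and germ cell markers 1 of 4, with 1 higher. Fibroblast markers summed to 210 to 220 CPM and to 121 to 135 CPM, with LUM as the main gene and DCN and FAP near 0. Blood and endothelial markers summed to 77.0 to 83.9 CPM and to 28.4 to 38.9 CPM, nearly all CD14 and LYZ, while PTPRC, CD3E and CDH5 were near 0. The part of these shifts in the carrier gene levels was not tested. In bulk RNA, fewer cells of a type and less RNA per cell cannot be told apart.

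Promoters are shown for 5 of the genes: the neighbours ALB and AFP, ORM1, AHSG and the GC-rich RBP4. RefSeq (GRCh38.p14) gave promoters for 7 of the 10 genes. Each line gives the 250 bases that end just before the annotated transcript start, on the strand of the gene and 5′ to 3′. For ALB and AFP this RefSeq start lies inside the GENCODE span given below. Capitals mark matches on either strand to 5 motifs: the HNF1 half-site GTTAAN, the C/EBP motif TTNNGNAA, the FOXA motif TGTTTNC, the HNF4 half-site CAAAGTCC or CAAAGGTC, and the TATA box TATAAA. No 2 matches of different motifs overlapped in these windows.
ALB, chr4:73404037-73404286, plus strand: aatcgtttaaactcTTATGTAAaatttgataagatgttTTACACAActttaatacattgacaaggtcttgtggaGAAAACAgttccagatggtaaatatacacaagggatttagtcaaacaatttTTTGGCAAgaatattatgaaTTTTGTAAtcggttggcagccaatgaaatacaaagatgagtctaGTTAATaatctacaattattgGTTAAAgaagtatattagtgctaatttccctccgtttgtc
AFP, chr4:73435971-73436220, plus strand: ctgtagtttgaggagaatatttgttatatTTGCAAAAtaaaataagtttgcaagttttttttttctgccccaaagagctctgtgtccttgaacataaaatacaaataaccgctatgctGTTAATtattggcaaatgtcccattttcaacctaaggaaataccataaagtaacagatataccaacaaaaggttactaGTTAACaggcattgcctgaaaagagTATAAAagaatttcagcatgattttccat
ORM1, chr9:114322848-114323097, plus strand: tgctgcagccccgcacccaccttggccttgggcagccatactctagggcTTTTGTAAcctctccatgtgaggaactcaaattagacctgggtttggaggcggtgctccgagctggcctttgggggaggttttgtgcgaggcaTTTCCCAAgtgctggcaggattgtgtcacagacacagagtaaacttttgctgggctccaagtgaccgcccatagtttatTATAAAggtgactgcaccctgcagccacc
AHSG, chr3:186612810-186613059, plus strand: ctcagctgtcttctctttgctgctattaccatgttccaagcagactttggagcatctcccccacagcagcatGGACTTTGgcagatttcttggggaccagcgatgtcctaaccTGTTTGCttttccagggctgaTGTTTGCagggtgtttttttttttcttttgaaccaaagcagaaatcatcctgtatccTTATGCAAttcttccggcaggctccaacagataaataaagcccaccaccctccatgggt
RBP4, chr10:93601236-93601485, minus strand: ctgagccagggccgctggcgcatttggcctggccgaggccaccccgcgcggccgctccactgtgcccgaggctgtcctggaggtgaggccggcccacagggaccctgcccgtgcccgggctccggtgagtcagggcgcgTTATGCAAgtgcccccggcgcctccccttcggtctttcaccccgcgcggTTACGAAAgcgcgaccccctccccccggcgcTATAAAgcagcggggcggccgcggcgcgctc

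In these letters ALB had 2 HNF1 half-sites, GTTAAT at −61 to −56 and GTTAAA at −40 to −35 from the start, and 4 C/EBP matches. AFP also had 2 HNF1 half-sites, GTTAAT at −132 to −127 and GTTAAC at −54 to −49, with a TATA box at −29 to −24. ORM1 had 2 C/EBP matches and a TATA box at the same distance as in AFP. AHSG had 2 FOXA matches, each reading TGTTTGC, 1 C/EBP match and the only HNF4 half-site found in the 7 genes. The RBP4 window was 74.8% G and C against 30% in ALB, 31.6% in AFP and a median of 58.0% over 35116 promoters. It still held 2 C/EBP matches and a TATA box at −31 to −26.

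A C/EBP match was present for 6 of the 7 genes and in 33.2% of all 35116 promoters of the same length. An HNF1 half-site was present for 3 of 7 genes and in 19.8% of all promoters, a FOXA match for 3 of 7 and in 15.5%, and a TATA box for 3 of 7 and in 10.7%. The HNF4 half-site was present for 1 of 7 genes and in 1.8% of promoters. RBP4 has 3 annotated starts in the table, so it had 3 windows in which to match. These are matches of letters and not evidence that a factor was bound.

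In the controls the carrier genes spanned a wide range of levels. Per length, in the authors' FPKM (fragments scaled to transcript length and library size), ALB was highest at 366, 357 and 379 in control libraries 1 to 3. AMBP, which encodes the precursor of alpha-1-microglobulin and bikunin, followed at 321, 309 and 343 FPKM. RBP4, the plasma carrier of retinol, was at 190, 179 and 201 FPKM. ALB stood 76th, AMBP 91st and RBP4 155th by mean FPKM among 17242 protein-coding genes. AFP was at 142, 132 and 140 FPKM, rank 236. ORM1, an acute-phase carrier of basic drugs, was at 126, 115 and 129 FPKM, rank 268. GC, the vitamin D-binding protein, was at 25.2, 22.7 and 24.0 FPKM, so a gap of several fold separated the 5 most abundant genes from the rest.

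The other 4 genes were far lower. TTR, which carries thyroxine and holds RBP4 in a complex, was at 4.64, 3.91 and 4.06 FPKM. HPX, the haem scavenger hemopexin, was at 3.96, 3.79 and 3.96 FPKM. TTR and HPX were the only neighbours in the order whose control libraries overlapped. AHSG, the calcium-binding fetuin-A, was at 1.62, 1.31 and 0.99 FPKM. HP, which encodes haptoglobin, the scavenger of free haemoglobin, was at 0.04, 0 and 0.01 FPKM and was in effect the carrier gene without a measurable transcript.

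The order changed with overexpression at the places where the differences between groups were unequal. ORM1 stood above AFP, with 58.7 to 76.6 FPKM against 42.9 to 53.2 FPKM. HPX stood above TTR, with 2.09 to 2.28 FPKM against 0.60 to 1.42 FPKM. ALB fell in rank from 76 to 158 of the protein-coding genes, AMBP from 91 to 182, RBP4 from 155 to 261, AFP from 236 to 766 and GC from 1582 to 3515.

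**Figure D1:**
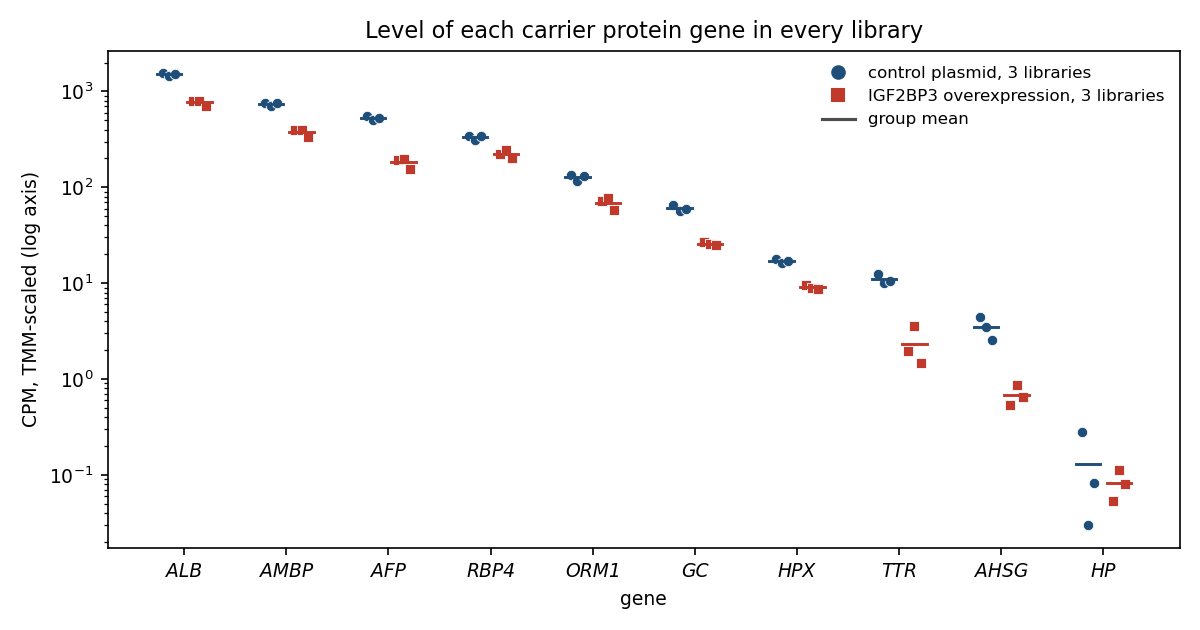
CPM (log axis) of each carrier protein gene in the 3 control libraries (circles) and the 3 overexpression libraries (squares), with short lines at the group means. For the 9 genes other than HP, the squares all sit below the circles. HP lies at the bottom, where single counts set its place and the groups overlap.

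Albumin, the main carrier of fatty acids and bilirubin and the chief source of the osmotic pressure of plasma, led in counts. ALB (ENSG00000163631.17, chromosome 4, 73397114 to 73421412, plus strand, in GENCODE release 29 on GRCh38) was at 1546, 1459 and 1532 CPM in control libraries 1 to 3 and at 798, 799 and 713 CPM in overexpression libraries 1 to 3. The lowest control library was far above the highest overexpression library, and overexpression replicate 3 was the lowest of all. Group means were 1512 ± 46.8 CPM for the controls and 770.1 ± 49.7 CPM for overexpression (SD, n = 3 each). The log2 fold change was −0.97 ± 0.05 (SE), a 1.96-fold lower level. ALB took 0.146% to 0.155% of all counts in the controls and 0.0724% to 0.0794% with overexpression.

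Alpha-fetoprotein is the fetal counterpart of albumin and a serum marker of liver, yolk sac and some gastric tumours. AFP (ENSG00000081051.8, chromosome 4, 73431138 to 73456174, plus strand) was at 559, 504 and 529 CPM in the controls and at 192, 198 and 156 CPM with overexpression. The groups did not overlap, and again overexpression replicate 3 was lowest. Its log2 fold change was −1.54 ± 0.08, a 2.91-fold lower level. AFP thus stood further below its control level than ALB, its neighbour at 9.72 kb between their GENCODE spans. The ratio of ALB to AFP counts was 2.76, 2.90 and 2.90 in the controls and 4.15, 4.03 and 4.56 with overexpression, with no overlap. Of the 2072 genes with a mean of at least 100 CPM, AFP had the second lowest log2 fold change, AMBP the 14th, ALB the 15th and RBP4 the 58th.

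GC belongs to the same family as albumin and carries vitamin D metabolites and free actin. GC (ENSG00000145321.13, chromosome 4, 71741693 to 71804041, minus strand) was at 64.9, 56.5 and 59.3 CPM in the controls and at 26.6, 25.9 and 24.8 CPM with overexpression. The overexpression libraries lay close together and well below each control. This was a log2 fold change of −1.22 ± 0.06, between those of ALB and AFP. AFM, the fourth gene of the family and the carrier of vitamin E, lies 25.51 kb beyond AFP and had only 8, 15 and 14 counts in the controls and 2, 9 and 4 with overexpression, too few to be tested.

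TTR and RBP4 encode proteins that travel together in plasma, yet their transcripts differed by unequal amounts. TTR (ENSG00000118271.12, chromosome 18, 31557010 to 31599021, plus strand) was at 12.4, 10.1 and 10.4 CPM in the controls and at 1.95, 3.60 and 1.48 CPM with overexpression. Overexpression replicate 2 stood above the other two, and even so it was under each control. The log2 fold change was −2.24 ± 0.22, a 4.71-fold lower level that rests on 55 to 128 counts in the overexpression libraries.

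RBP4 (ENSG00000138207.14, chromosome 10, 93591687 to 93601744, minus strand) was at 341, 311 and 345 CPM in the controls and at 222, 245 and 203 CPM with overexpression. The groups did not overlap, but the gap was the narrowest of the 9 genes on the log scale. On the log2 scale RBP4 differed by −0.57 ± 0.06, a 1.49-fold lower level. The ratio of RBP4 to TTR counts rose from 27.4, 30.7 and 33.1 in the controls to 113, 68.0 and 137 with overexpression. These are ratios of counts and not of molecules, since the transcripts differ in length.

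AMBP and ORM1 are lipocalins, as is RBP4, and AMBP and ORM1 lie 244.58 kb apart on chromosome 9. AMBP (ENSG00000106927.12, 114060127 to 114078472, minus strand) was at 750.4, 698 and 766 CPM in the controls and at 393, 401 and 334 CPM with overexpression. ORM1 (ENSG00000229314.6, 114323056 to 114326475, plus strand) was at 134, 118 and 131 CPM in the controls and at 71.6, 77.1 and 57.6 CPM with overexpression. For both genes control replicate 2 was the lowest control and overexpression replicate 3 the lowest library of all, with no overlap between groups. The log2 fold change was −0.97 ± 0.06 for AMBP, as for ALB, and −0.89 ± 0.09 for ORM1.

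ORM1 has a near-identical copy, ORM2, which begins 3.39 kb further on. Their coding sequences were identical at 94.88% of 606 positions, so reads may have been split between them and the level of each is uncertain. ORM2 was at 42.8, 42.3 and 48.4 CPM in the controls and at 25.3, 27.7 and 20.3 CPM with overexpression, a log2 fold change of −0.87 ± 0.10 (edgeR adjusted p = 4.03e-05). The ratio of ORM1 to ORM2 counts was 2.70 to 3.13 in the controls and 2.79 to 2.84 with overexpression, so these ranges overlapped while the 2 genes were lower together.

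AHSG had the lowest log2 fold change of the 9 genes. AHSG (ENSG00000145192.13, chromosome 3, 186612923 to 186621318, plus strand) was at 4.41, 3.46 and 2.58 CPM in the controls and at 0.535, 0.873 and 0.645 CPM with overexpression. The controls themselves spread widely at this level, from 157 counts in replicate 1 to 93 in replicate 3, and the overexpression libraries had 20 to 31 counts. AHSG had a log2 fold change of −2.35 ± 0.25, a 5.09-fold lower level. AHSG and TTR, which had the lowest mean CPM of the 9, ranked 15th and 18th from the lowest log2 fold change among 17747 genes, and RBP4 ranked 1799th.

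HPX and HP act on haem and haemoglobin released from red cells, and only HPX was measurable. HPX (ENSG00000110169.11, chromosome 11, 6431049 to 6442617, minus strand) was at 17.7, 16.4 and 17.0 CPM in the controls and at 9.69, 8.87 and 8.62 CPM with overexpression. Each group was tight and the groups did not overlap. On the log2 scale HPX differed by −0.91 ± 0.08, a 1.88-fold lower level.

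HP (ENSG00000257017.9, chromosome 16, 72054592 to 72061055, plus strand) had 10, 1 and 3 counts in the controls and 2, 4 and 3 with overexpression. It did not pass the filter on low counts, the groups overlapped, and no fold change is given. Its near-identical copy HPR, 2.09 kb further on, had 2, 5 and 1 counts in the controls and 0, 1 and 0 with overexpression. The coding sequences of HP and HPR were identical at 95.59% of 1044 positions aligned without a gap, so these few reads are uncertain too.

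Of the 10 genes, 9 passed the filter on low counts, and 9 of 9 had an edgeR adjusted p under 0.05 in the lower direction, beside 19.2% of all 17747 genes tested. All 3 overexpression libraries were below all 3 controls for 9 of 9, beside 25.4% of all genes. Nothing is read from these counts, since the genes were picked on this contrast. The median log2 fold change of the 9 was −0.97, beside −0.01 over all genes. Together the 10 genes took 0.317% to 0.343% of all counts in the controls and 0.152% to 0.175% with overexpression.

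**Figure D2:**
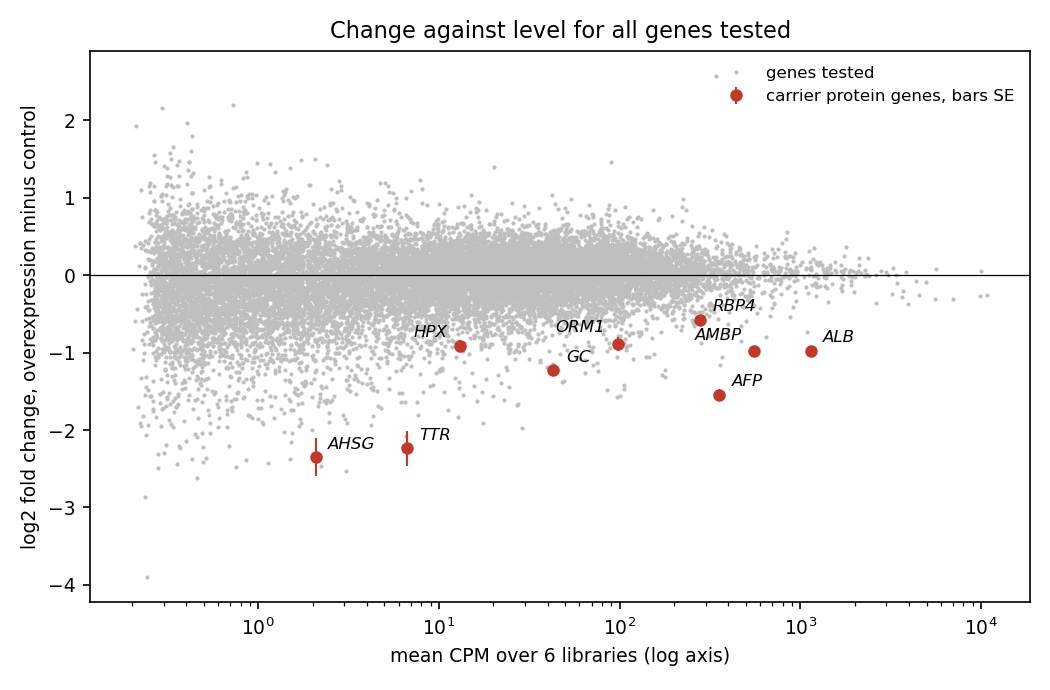
Log2 fold change (overexpression minus control) against mean CPM (log axis) for the 17747 genes tested (grey points), with the 9 carrier protein genes named. They range from −0.57 for RBP4 to −2.35 for AHSG, and the 2 lowest values belong to AHSG and TTR, which are of low level.

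Within each group most carrier genes shared the highest and the lowest library, and how many of all genes do so was not counted. Among the controls, replicate 1 was highest for 7 of 9 genes and replicate 2 was lowest for 8. Among the overexpression libraries, replicate 2 was highest for 7 of 9 genes and replicate 3 lowest for 8. TTR deviated most, with overexpression replicate 2 at 0.70 above and replicate 3 at 0.54 below its group mean in log2 CPM, whereas ALB stayed within 0.11 of its group means. With the outermost library of each group left out (control replicate 1, overexpression replicate 3), the log2 fold change was −0.91 for ALB, −1.40 for AFP and −0.88 for AMBP.

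The genes whose levels over the 6 libraries were most like the mean profile of the carrier genes were sought among genes with at least 1 CPM. They were DSCAML1 (Pearson r = 0.9998), TF (0.9997), LSS (0.9995) and WDTC1 (0.9994). DSCAML1 is a cell adhesion molecule, TF is transferrin, the iron carrier of plasma, and LSS is an enzyme of cholesterol synthesis. The carrier genes themselves had r of 0.973 (AHSG) to 0.9989 (AFP) with the mean they are part of. These r values describe 6 points that share the group difference, and a lower level with overexpression is what each of these 4 genes had (log2 fold changes of −0.40 to −1.91).

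The transcripts of the carrier genes shared a short build. Over 13622 of the 13869 protein-coding genes tested, the median length of the transcript with the longest coding part was 3010.5 bases, and each of the 10 carrier transcripts was shorter, from 802 bases for ORM1 to 2263 bases for ALB. Each of the 10, by the same choice of transcript, had a 3′ untranslated region of 29 (AFP) to 388 (RBP4) bases, under the median of 918. Whether the transcript so chosen is the main one in these cells was not tested. GGAC, one form of the m6A motif, occurred 0.44 times per kb in ALB and 8.73 times per kb in ORM1, on either side of the median of 3.86. AFP had 2.09 per kb, TTR 3.85 and AHSG 3.86.

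By coding sequence of the transcripts so chosen, ALB was identical to AFP at 57.22% of alignment columns with gaps counted, to AFM at 54.13% and to GC at 48.28%. Over columns without a gap these were 61.69%, 59.64% and 66.09%, so their order depends on the measure. ORM1 and ORM2 stood higher at 94.88% on both measures, and HP and HPR at 74.92% with gaps counted and 95.59% without. RBP4 and ORM1, of the lipocalin fold, were identical at 47.62% of columns with gaps counted and 59.26% without.

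The chromosomal neighbours of the carrier genes were chosen for description after the data had been seen. Taking the nearest protein-coding gene on each side gave 18 genes that are not carrier genes themselves, of which 13 could be tested. With overexpression 3 of the 13 were lower (KIF12, COL27A1 and ORM2), 4 were higher (ANKRD17, NPFFR2, DSG2 and TXNL4B) and 6 did not pass. These counts stand beside 19.2% of all genes lower and 18.5% higher. ANKRD17, on the far side of ALB from AFP, was at 28.7 CPM in the controls and 34.9 CPM with overexpression (log2 fold change 0.28 ± 0.07, edgeR adjusted p = 0.0059). DSG2, 8.0 kb from the GENCODE span of TTR, was at 33.9 and 39.3 CPM (0.21 ± 0.07, edgeR adjusted p = 0.036). That span is 42.01 kb long, and which TTR start the cells used was not tested. On chromosome 9, KIF12 beside AMBP had a log2 fold change of −1.36 ± 0.09 and COL27A1 beside ORM1 −0.76 ± 0.07. ZNF618, on the other side of AMBP, had −0.45 ± 0.25 and did not pass (edgeR adjusted p = 0.17). TXNL4B overlaps HP and FFAR4 overlaps RBP4 in the annotation, so reads of each pair may not be separable.

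**Figure D3:**
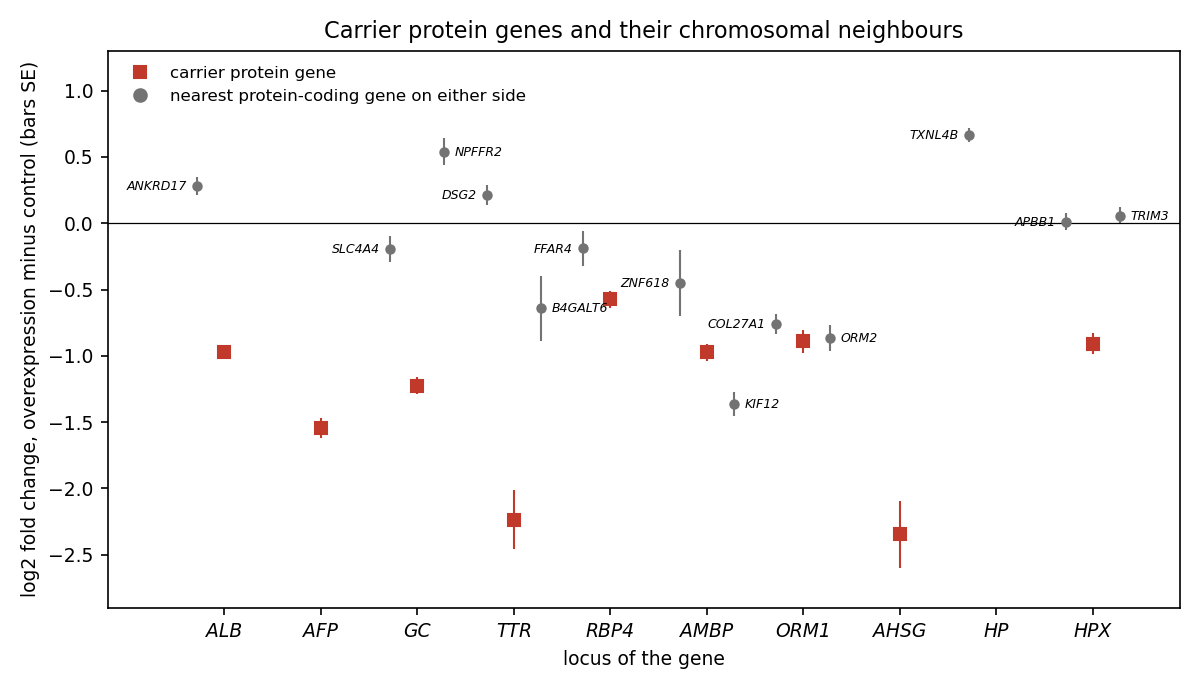
Log2 fold changes (bars are SE) of the carrier genes (squares) and of the nearest protein-coding gene on either side (circles), by locus. Neighbours of ALB, GC, TTR, HP and HPX include genes above 0, and those beside AMBP and ORM1 include KIF12, COL27A1 and ORM2 at −0.76 or below. HP and neighbours with too few counts are not drawn.

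Relatives, partners and regulators of the carrier proteins were taken from 9 lists that hold none of the 10 genes. Of 126 listed genes 123 had counts and 99 could be tested, and 54 of the 99 fell and 9 rose, with a median log2 fold change of −0.23. Of all genes tested, 19.2% were lower and 18.5% higher, with a median of −0.01, and the counts below stand beside these shares. The lists were written with earlier results of these data known and do not stand as independent evidence of a direction.

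Closest to the carrier genes in kind, 9 of 9 tested genes in the list of other plasma carriers fell (median −1.02). TF was at 166, 144 and 154 CPM in the controls and at 57.5, 61.2 and 48.4 CPM with overexpression, with no overlap (log2 fold change −1.48 ± 0.08, edgeR adjusted p = 4.76e-07). SERPINA6, the cortisol carrier, fell from 2.28 ± 0.284 to 0.737 ± 0.152 CPM, and PON1, the paraoxonase of high-density lipoprotein, from 1.04 ± 0.282 to 0.310 ± 0.063 CPM. Of the albumin and lipocalin relatives 6 of 6 fell (median −1.27). Besides ORM2 these included APOM, a lipocalin of lipoproteins, at 1.31 ± 0.365 and 0.517 ± 0.0889 CPM, and RBP5, an intracellular retinol-binding protein, at 1.37 ± 0.212 and 0.392 ± 0.0927 CPM. LCN12 fell too, from 0.871 ± 0.298 to 0.209 ± 0.0283 CPM. Its log2 fold change of −2.04 ± 0.37 rests on 9, 7 and 7 counts in the overexpression libraries.

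Retinol and thyroxine transport, the work of RBP4 and TTR, changed less evenly, with 4 of 13 lower, none higher and a median of −0.06. STRA6, the membrane receptor of RBP4, fell from 2.43 ± 0.312 to 1.03 ± 0.336 CPM, with edgeR giving a log2 fold change of −1.24 ± 0.23 and an adjusted p of 0.0013. SERPINA7, the main thyroxine carrier of plasma, fell from 0.649 ± 0.321 to 0.146 ± 0.0827 CPM, on only 8, 6 and 2 counts in the overexpression libraries. THRA, a thyroid hormone receptor, fell from 17.2 ± 3.34 to 10.8 ± 0.447 CPM. RDH11, which oxidises retinol and reduces retinal, was at 81.0 and 74.4 CPM and DGAT1 at 26.2 and 24.4 CPM, and neither passed the test.

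In the list of vitamin D handling and protein reabsorption, which GC and the filtered carriers depend on, 8 of 11 were lower and 1 higher (median −0.91). CYP24A1, which inactivates vitamin D, fell from 1.27 ± 0.291 to 0.227 ± 0.0399 CPM, with edgeR giving −2.47 ± 0.31 on the log2 scale and an adjusted p of 8.29e-05. This value rests on 10, 8 and 7 counts in the overexpression libraries. SPARC, a matrix protein that binds albumin, fell from 2.40 ± 0.289 to 0.715 ± 0.197 CPM. CUBN, the receptor by which the kidney takes filtered albumin and GC back up, was at 0.361 and 0.173 CPM with an edgeR adjusted p of 0.049, and its call was lost under 12 of the 15 alternatives that tested it. B2M was at 344 and 358 CPM and CYP27B1 at 6.91 and 7.83 CPM, and neither passed.

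For clearance of haemoglobin and haem, the targets of HP and HPX, 4 of 10 were lower and none higher (median −0.15). LRP1, the receptor that takes up hemopexin with its haem, was at 95.2, 84.9 and 93.0 CPM in the controls and at 41.1, 41.1 and 31.8 CPM with overexpression, with no overlap (log2 fold change −1.26 ± 0.09, edgeR adjusted p = 2.14e-06). HMOX1, which breaks haem down, was at 18.7 ± 2.46 and 15.4 ± 1.58 CPM with an edgeR adjusted p of 0.04997, a call that 8 of 17 alternatives lost. BLVRA, which makes bilirubin, was at 49.9 and 44.1 CPM (edgeR adjusted p = 0.017), and 5 alternatives lost its call. The haem exporter FLVCR1 and the haem and folate transporter SLC46A1 did not pass.

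Around AMBP and AHSG, 5 of 7 genes of the inter-alpha-inhibitor and fetuin list were lower and none higher (median −0.30). ITIH2, a heavy chain that is joined to the bikunin part of the AMBP product, fell from 26.2 ± 0.970 to 10.4 ± 1.12 CPM, a log2 difference of −1.34 ± 0.08 (edgeR adjusted p = 1.01e-06). ASGR1 and ASGR2 form the asialoglycoprotein receptor, which removes desialylated plasma glycoproteins from blood. ASGR1 fell from 34.5 ± 3.22 to 11.3 ± 2.06 CPM and ASGR2 from 93.9 ± 4.65 to 47.2 ± 4.51 CPM. ITIH4 was at 2.43 and 2.70 CPM and SPINT2 at 1.03 and 0.912 CPM, and neither passed.

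Acute-phase genes, among which HP and ORM1 rise and ALB, TTR and AHSG fall during inflammation, split in direction, with 6 of 13 lower and 3 higher (median −0.09). SERPINA1, which encodes alpha-1-antitrypsin, fell from 33.4 ± 4.21 to 14.3 ± 1.87 CPM, and SAA4, a constitutive serum amyloid A, from 1.19 ± 0.103 to 0.454 ± 0.133 CPM. SOCS3, the feedback inhibitor of interleukin 6 signalling, was higher, at 6.48 ± 0.603 CPM against 4.74 ± 0.404 CPM (log2 difference 0.45 ± 0.12, edgeR adjusted p = 0.0093). JAK1 and IL6ST, which carry that signal, were at 166 and 168 CPM and at 54.2 and 57.7 CPM and did not pass. The other genes of the list called higher, STAT3 and NR3C1, were named after their values were seen. STAT3 was at 81.7 ± 1.44 and 99.9 ± 2.36 CPM (edgeR adjusted p = 3.87e-04). NR3C1 was at 85.2 ± 5.98 and 107 ± 8.98 CPM (edgeR adjusted p = 0.0023).

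**Figure D4:**
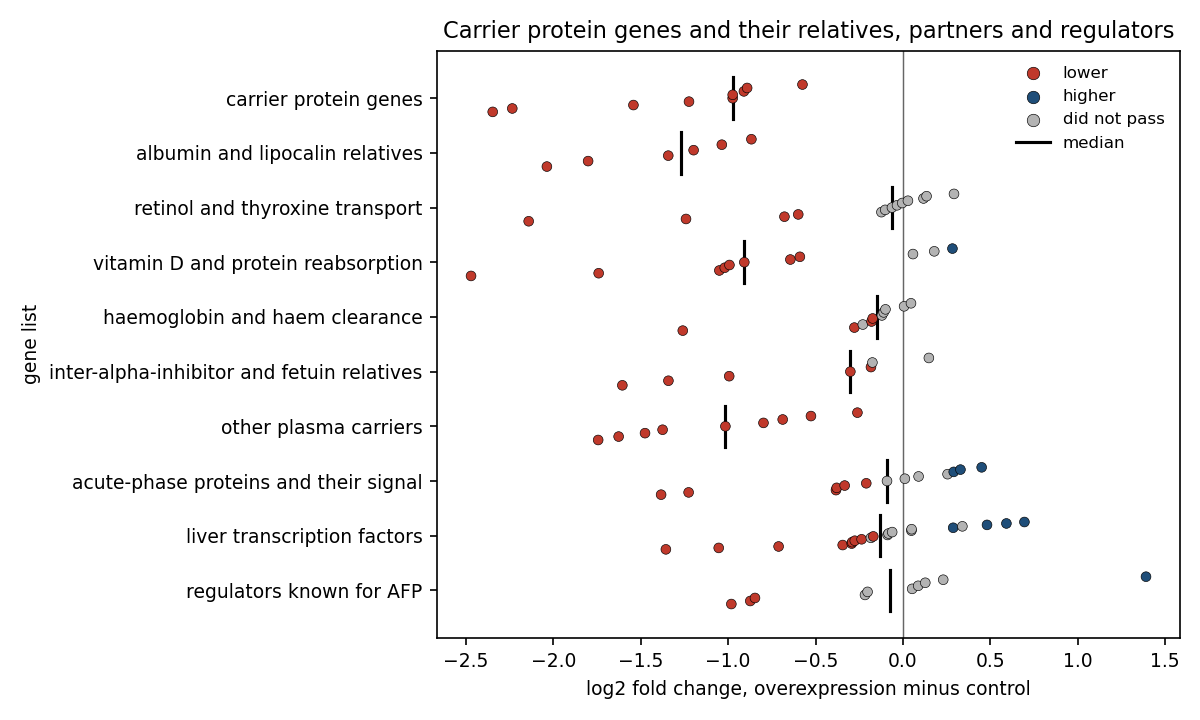
Log2 fold change (overexpression minus control) of each tested gene, by list, with the 9 carrier protein genes in the first row. Points are coloured by whether a gene passed the test and in which direction, and all points of the other plasma carriers and of the albumin and lipocalin relatives lie below 0. The liver transcription factors lie on both sides of 0.

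The list of liver transcription factors was mixed, with 9 of 20 lower and 4 higher (median −0.13). CEBPA is a C/EBP factor, as are CEBPB and CEBPD below. It was at 201, 186 and 200.2 CPM in the controls and at 97.8, 103 and 82.3 CPM with overexpression (log2 fold change −1.05 ± 0.07, edgeR adjusted p = 1.59e-06). NR1H4, the bile acid receptor, fell from 2.03 ± 0.316 to 0.795 ± 0.264 CPM, and FOXA1 from 13.1 ± 0.958 to 7.99 ± 0.565 CPM. FOXA2 was at 96.7 ± 2.14 and 100.1 ± 2.27 CPM and PROX1 at 63.1 ± 7.39 and 59.4 ± 1.98 CPM, and neither passed. The following 3 were chosen after their values were seen: HNF4A fell from 133 to 113 CPM, whereas CEBPD rose from 97.9 to 137 CPM and CEBPB from 37.0 to 45.2 CPM.

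Of the regulators and companions known for AFP, 3 of 10 were lower and 1 higher (median −0.07). GPC3, an oncofetal proteoglycan often expressed with AFP, was at 372, 358 and 361 CPM in the controls and at 202, 209 and 185 CPM with overexpression (log2 fold change −0.87 ± 0.05, edgeR adjusted p = 4.76e-07). H19, a fetal long noncoding RNA silenced after birth alongside AFP, fell from 13.8 ± 0.952 to 6.97 ± 0.689 CPM. CTNNB1, which encodes beta-catenin, was at 277 and 294 CPM and did not pass.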

How the data were processed

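Polyadenylated RNA of 3 control and 3 overexpression libraries was sequenced, with a strand-marking kit and 150 nt paired-end reads per the labels' protocols. HISAT2, DESeq2 and the build GRCh38 are named in the submitters' processing notes without versions. How reads were assigned to genes, and whether by strand, was a step not given in the sources used here. The authors deposited raw read counts for 32943 genes, with 33555366 to 37633587 counts per library, and FPKM for 32477 genes. The authors' FPKM were used only for levels between genes within a group and in alternatives.

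The test across genes was edgeR's quasi-likelihood F test (version 4.0.16, R 4.3.3) with TMM scaling. The filterByExpr minimum count of 10 and minimum total of 15 left 17747 genes, and p was adjusted by Benjamini-Hochberg over all genes, with 0.05 as the threshold. SE of a log2 fold change came from its F statistic. CPM are counts on TMM-scaled library sizes, and likeness used log2 CPM with a prior count of 3. The pipeline was tested on simulated data.

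The 10 genes and all lists were chosen with earlier results of these data known. Named from each list were the 3 genes with the largest absolute log2 fold change among those past the threshold, the 2 of highest mean CPM among those not past it, and near-identical copies of a carrier gene. The 5 genes of most similar profile were also taken. A few of the genes so chosen are not reported here. Positions and transcripts are from GENCODE release 29, matched on Ensembl ID. Coding sequences were aligned with Biopython 1.88. Protein identity, planned first, was replaced by coding sequence identity because protein sequences were not used here.

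Alternatives were other scalings and filters, a replicate block, DESeq2 1.42.0, limma-voom and limma 3.58.1 on log2 FPKM with pseudocounts of 1 and 0.1, and libraries left out.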

Additional observations from a re-analysis of the deposited data

How the results depend on the processing

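All 17 alternatives called 9 of 9 tested carrier genes lower, from which nothing is read, since the genes were picked on this contrast in these libraries. The count of all genes called lower ranged from 2453 to 3949 against 3410, and the count of related genes called lower from 46 to 57 against 54. Leaving out 1 library at a time gave 2809 to 3125 genes lower and 2675 to 2982 higher. With the replicate number as a replicate block, 3509 genes were lower, 3339 higher, 9 carrier genes lower and 53 related genes lower. The numbers were not taken as pairs: deviations of same-numbered libraries correlated at 0.0889, −0.0429 and 0.0819, and 2 of 3 numbers correlated best with their own number, a hint from the data and not the design. Upper quartile scaling shifted the split to 3949 lower and 2577 higher. With limma on log2 FPKM, which changes the unit, scaling and model together, and a pseudocount of 1, log2 fold changes were −1.45 for TTR, −0.85 for AHSG, −0.64 for HPX and −1.099 for GC, and with 0.1 they were −1.92 for AHSG and −0.83 for HPX. JAK1, near 0 throughout, turned negative under upper quartile scaling (−0.0329) and with both outer libraries, control replicate 1 and overexpression replicate 3, left out (−0.0265). With 1 library left out it ranged from −0.0081 to 0.0479, being −0.0073 without control replicate 1, −0.0050 without control replicate 3 and −0.0081 without overexpression replicate 3. IL6ST turned to −0.0077 without both outer libraries. The cause was not tested. Depth limits HP, HPR and AFM, whose counts could not be tested, and n = 3 libraries limits the rest.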
